A study of Mus musculus with 18 samples.

Results

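The genes described here are 44 mouse genes known to be imprinted that lie outside the Meg3 cluster, chosen by gene name from a list grouped by locus. All 44 were present among the 32285 genes counted in liver, and 34 of them passed the filter on low counts, as did 12847 genes in all. By what is known of their imprinting, 16 are expressed from the paternal allele, of which 10 passed, and 11 from the maternal allele, of which 7 passed. The remaining 17 are imprinted in placenta or in a single tissue such as brain, and 17 of these passed.

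Liver RNA was sequenced from 18 mice, with 6 libraries, 1 per animal, in each of 3 groups. The fathers' germ cells of Space and Ground pups came from cultures of DBA/2 spermatogonial stem cells, called GS (germline stem) cells, that were kept frozen for 6 months, in orbit on the International Space Station for Space and on Earth for Ground. After thawing, the cells colonized testes of W mice, in which Kit mutations prevent endogenous spermatogenesis, and these recipients were paired with C57BL/6 females. Wild-type BDF1 mice were the controls. All 3 groups carry the strain label B6D2F1 and the genotype label wild-type, the pups were 10 weeks old, and the controls are described only as adult. By the methods of the study, the GS cells were derived from mice with an EGFP transgene. The paternal genome of each pup had therefore passed through culture, freezing and transplantation, and Space against Ground compared the place of storage, and either against BDF1 the whole procedure. The pups of each group also had their own recipient fathers and litters, which cannot be told apart from storage. Both comparisons with BDF1 share the same 6 control libraries.

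Imprinted genes are transcribed from the allele of only one parent, according to DNA methylation that is laid down at control regions in the germ line and kept in somatic cells. The paternal pattern is erased and rewritten before birth in male germ cells, so that spermatogonia already carry it. Many imprinted genes act in growth. Paternally expressed genes such as Igf2 tend to promote fetal growth, maternally expressed genes such as H19, Igf2r, Cdkn1c and Grb10 tend to restrain it, and in liver most of this network is switched down after birth. The study examined methylation at the H19 and Igf2r control regions in tail DNA and sequenced liver RNA of the offspring. The counts carry no allele information, so only total transcript levels are described below.

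Total counts ranged from 15407450 to 20562351 per library, and a gene without a count could still have made up to between 0.134 and 0.236 CPM (counts per 1000000 of the TMM-scaled library size), since a count of 0 allows up to 3. This limit covers counting error only. Replicates 1 to 3 of each group held 0 to 187 counts of Xist and 1822 to 2482 of 4 Y-linked genes, against 12218 to 21557 and 0 to 26 in replicates 4 to 6, and the study used males and females. The groups were therefore also compared within replicates 1 to 3 and within replicates 4 to 6. The 8 hepatocyte markers were detected in every library, with summed levels from 61518 to 379556 CPM, and Alb alone took 17.6% to 24.1% of counts in the pups of replicates 4 to 6 against 4.47% to 8.03% in the other 12 libraries. With total-count scaling the median log2 change of all genes against BDF1 was -0.39 in Space and -0.47 in Ground within replicates 4 to 6, so changes are given with TMM scaling. Fewer cells of a type and less RNA per cell cannot be told apart in whole liver.

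Most of the list was transcribed in adult liver. Over the 18 libraries, 4 genes had a mean of at least 100 CPM, 15 lay between 10 and 100, 11 between 1 and 10, and 4 that passed the filter were under 1 CPM. Per kb of merged exons, Cd81, a tetraspanin of the cell surface, had the highest mean level, with 90.1 CPM per kb (range 75 to 127). It was followed by the transporter gene Slc22a18 with 61.3 CPM per kb (range 50.2 to 85.1) and by Gnas, the stimulatory G protein alpha subunit, with 45.6 (range 32.1 to 65.7). These ranges overlapped between neighbours in the order. The classical growth regulators were far lower. Cdkn1c, a cyclin-dependent kinase inhibitor, reached a mean of 1.11 CPM per kb, Igf2 0.427, Mest 0.299, Grb10 0.299 and the zinc finger gene Plagl1 0.159. Igf2r, the receptor that clears IGF2, was an exception with 5.25 CPM per kb (range 3.95 to 9.83). The lowest gene to pass was Kcnq1ot1, the long antisense RNA of the Kcnq1 domain, at 0.0225 CPM per kb over an annotated length of 93092 bases.

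**Figure D1:**
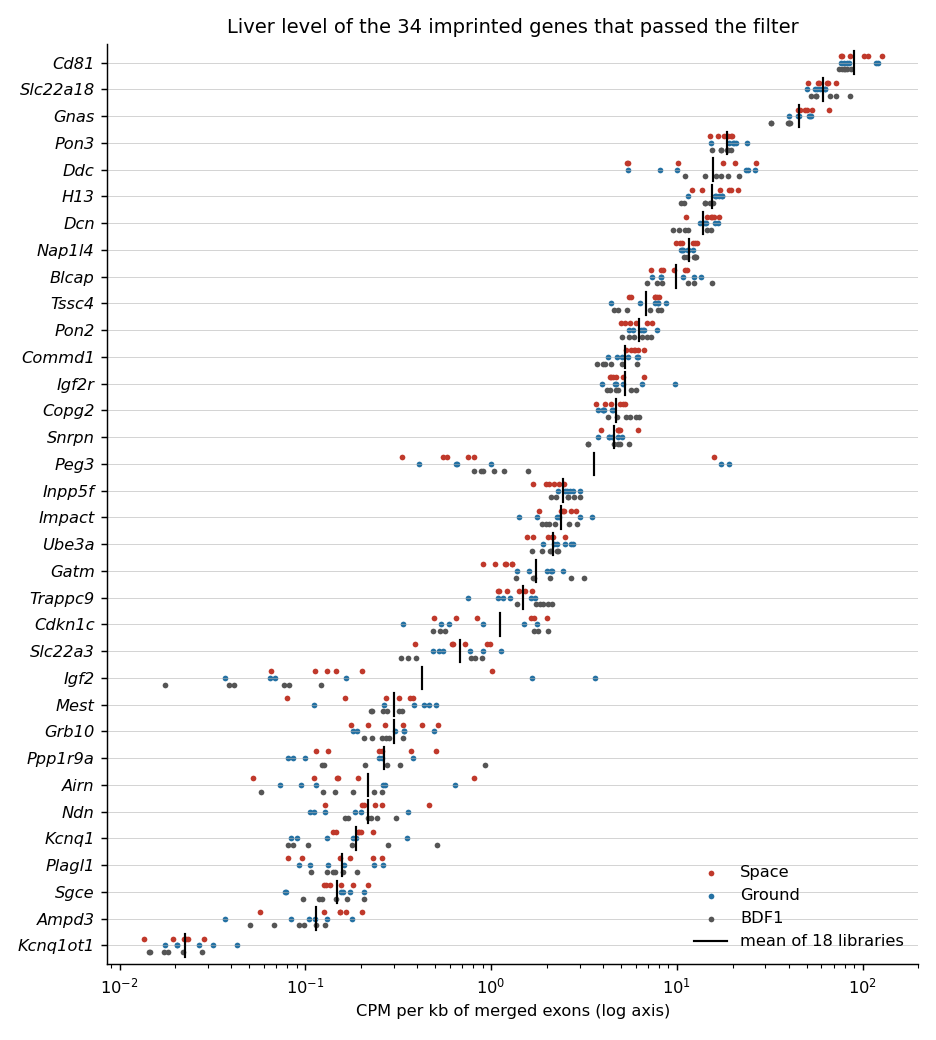
Level of each of the 34 genes that passed the filter, in CPM per kb of merged exons on a log axis; each point is 1 of 18 libraries coloured by group and the bar is their mean. Cd81, Slc22a18 and Gnas lie highest, Kcnq1ot1 lowest, and Peg3 and Igf2 have 3 pup libraries far to the right of the others.

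The other 10 genes were close to silent. Magel2, a neighbour of Ndn in the Snrpn domain, had 0 counts in all 18 libraries. Rasgrf1 had at most 1 count in a library, Usp29 at most 2, Zdbf2 at most 3, Zim1 at most 4, Nnat at most 5, Asb4 at most 7, Peg10 at most 8 and Phlda2 at most 9. H19, the maternally expressed noncoding RNA next to Igf2 on chromosome 7 (chr7:142575529-142578143, mm10), is abundant in fetal liver. It had 1, 0, 20, 0, 5 and 23 counts in Space replicates 1 to 6, 5, 0, 2, 1, 0 and 2 in Ground and 1, 3, 1, 7, 10 and 7 in BDF1. Space replicate 6, with the most counts, also held 53.9 CPM of 8 haploid germ cell markers, against at most 5.54 in the other 17 libraries, and their part in its count was not tested. Over all replicates, and within replicates 1 to 3, the H19 counts overlapped among the 3 groups. Within replicates 4 to 6, Ground with 1, 0 and 2 counts lay below BDF1 with 7, 10 and 7, and Space overlapped both. Of all genes tested, 30.3% did not overlap between Ground and BDF1 there. None of these 10 genes entered the tests with the filter, and H19 was not called without it. Without a filter Phlda2, a maternally expressed gene that limits placental growth, was called within replicates 4 to 6 against BDF1 in Space (adjusted p = 0.0322) and in Ground (adjusted p = 0.0250). It had 4, 7 and 4 counts in Space, 3, 7 and 5 in Ground and 0, 1 and 0 in BDF1 there. In replicates 1 to 3 it had 3, 7 and 2 counts in Space, 3, 3 and 5 in Ground and 9, 4 and 1 in BDF1, and the groups overlapped.

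Space and Ground pups did not differ detectably in any imprinted gene by edgeR with all libraries in the fit. Of the 34 genes, 0 passed an adjusted p of 0.05 over all libraries, as did 0% of all genes tested, and 2 had an unadjusted p under 0.05. The median log2 change, Space minus Ground, was 0.02 over the 34 genes and -0.02 over all genes. The call remained at 0 in every alternative over all libraries. Within replicates 1 to 3, 0 genes were called against 0.00778% of all genes, and within replicates 4 to 6 0 against 0.0234%, while 1 and 5 of the 34 had an unadjusted p under 0.05. Groups did not overlap for 5 genes within replicates 1 to 3 and for 6 within replicates 4 to 6, beside 16.8% and 14% of all genes. In the fit with limma voom, Gatm was called within replicates 1 to 3, and without Space replicate 4 edgeR called Peg3 within replicates 4 to 6.

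The gene with the smallest p was Gatm (chr2:122594467-122611303), which encodes glycine amidinotransferase, the first enzyme of creatine synthesis. Gatm stood at 2.72 to 3.91 (median 3.58) CPM in Space, 4.14 to 7.32 (median 6.17) in Ground and 4.11 to 9.49 (median 5.67) in BDF1. Every Space library lay below every Ground and BDF1 library. It was the only one of the 34 genes without overlap between Space and Ground, against 0.358% of all genes. The difference did not pass the adjustment of edgeR's test (log2 change -0.75, SE 0.196, adjusted p = 0.376). Inpp5f, a phosphoinositide phosphatase, ranged over 14 to 20.6 (median 17.7) CPM in Space and 19 to 25 (median 21.7) in Ground (log2 change -0.32, SE 0.103, adjusted p = 0.39). Ube3a, a ubiquitin ligase imprinted in neurons, ranged over 32 to 51.7 (median 42.8) CPM in Space and 39.1 to 57.1 (median 49.1) in Ground (log2 change -0.25, SE 0.12, adjusted p = 0.542). Both overlapped between the groups, and Ube3a shares 1803 exon bases with Snhg14 on the opposite strand.

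Against BDF1, only a few of the genes differed. In Space pups 2 of 34 genes were called, or 5.88%, beside 3.8% of all genes, and in Ground pups 1 of 34, or 2.94%, beside 3.81%. The median log2 change of the 34 was 0.12 in Space and 0.17 in Ground, beside 0.00 and 0.02 over all genes. None of the 10 paternally expressed genes was called in either comparison by edgeR with all libraries, though Igf2 was called in Ground in other settings given below.

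Gatm was lower in Space pups than in BDF1 (log2 change -0.87, SE 0.195, adjusted p = 0.0189). This is a 1.83-fold difference. The call was lost without BDF1 replicate 4 or 5, with adjusted p up to 0.056. In Ground pups the level of Gatm overlapped BDF1 widely (log2 change -0.12, SE 0.191, adjusted p = 0.774).

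Gnas was higher in Space pups than in BDF1. Its protein couples the glucagon receptor and other hormone receptors to adenylyl cyclase, and it is imprinted in a few tissues only. Gnas (chr2:174284320-174346744) stood at 501 to 734 (median 558) CPM in Space, 448 to 591 (median 542) in Ground and 359 to 457 (median 445) in BDF1. All Space libraries lay above all BDF1 libraries, and together Gatm and Gnas made 2 of 34 genes without overlap, beside 3.92% of all genes. The difference passed the test in Space (log2 change 0.46, SE 0.112, adjusted p = 0.0275) and missed it in Ground (log2 change 0.35, SE 0.111, adjusted p = 0.0843), where it was called with DESeq2 (adjusted p = 0.0204) and with the replicate set as covariate (adjusted p = 0.0493). With total-count scaling the Space change was 0.19, or 0.45 above the median of all genes, and was not called (adjusted p = 0.313). The call was also lost without a filter on low counts and without Space replicate 4 or 5 or BDF1 replicate 4 or 5 (adjusted p up to 0.0711). Gnas shares 988 exon bases with Gnasas1 and 1469 with Gm20721 on the opposite strand, and the strand setting of the counting is not stated.

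The promoters of both genes are shown because they are the members called in Space pups. Each is a RefSeq window of GRCm38.p6 from 250 bases before to 50 after an annotated start, read 5′ to 3′ on the strand of the gene, with CG dinucleotides, the sites of DNA methylation, in capitals. The Gatm window (chr2:122611228-122611527, minus strand) holds 22 CG, and the window of Gnas with the most CG among its 4 (chr2:174329756-174330055, plus strand) holds 40.
Gatm: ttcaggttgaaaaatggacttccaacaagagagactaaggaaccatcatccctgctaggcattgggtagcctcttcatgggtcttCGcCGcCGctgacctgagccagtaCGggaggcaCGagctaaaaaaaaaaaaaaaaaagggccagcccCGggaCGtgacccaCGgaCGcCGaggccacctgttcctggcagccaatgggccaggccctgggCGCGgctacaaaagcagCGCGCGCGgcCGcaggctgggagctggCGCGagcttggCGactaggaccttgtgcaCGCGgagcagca
Gnas: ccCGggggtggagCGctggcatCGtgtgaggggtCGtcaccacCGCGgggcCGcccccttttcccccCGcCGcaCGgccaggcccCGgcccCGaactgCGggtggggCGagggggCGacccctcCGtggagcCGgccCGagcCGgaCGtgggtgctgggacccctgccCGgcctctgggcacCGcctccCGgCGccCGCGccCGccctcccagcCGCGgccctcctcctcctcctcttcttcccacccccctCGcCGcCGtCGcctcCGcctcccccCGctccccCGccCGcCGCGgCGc
Over all 32851 such windows the median was 7 CG, and 23.1% and 3.91% of windows hold at least as many as these. The 54 windows found for 35 of the 44 genes had a median of 16.5 CG. The hexamer TGCCGC, the letters bound by the imprint-keeping factor ZFP57 when methylated, was searched on both strands and was present in 24.1% of these windows and in 11.6% of all. The hexamer itself contains a CG, and the windows were not matched for their number of CG. Overlapping windows of a gene, such as those of Mest, were counted separately. These shares therefore cannot show that the hexamer is enriched in imprinted genes. No methylation was measured in these livers.

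Copg2 was the gene called in Ground pups. It encodes a subunit of the coatomer coat of Golgi vesicles and lies tail to tail with Mest on chromosome 6 (chr6:30747554-30896794). Its level was 18.9 to 27.1 (median 24) CPM in Space, 19.2 to 23.4 (median 20.6) in Ground and 21.8 to 32 (median 28.1) in BDF1. Ground and BDF1 overlapped through BDF1 replicate 2, and over all libraries they overlapped for all 34 genes, beside 2.83% of all genes without overlap. Copg2 was lower in Ground than in BDF1 (log2 change -0.38, SE 0.104, adjusted p = 0.0485), with log2 change -0.23, SE 0.104, adjusted p = 0.224 in Space. The call was lost in 16 of 18 fits that left out 1 library (adjusted p up to 0.12) and with the replicate number as a block (adjusted p = 0.0639). Copg2 and Mest, whose paternal transcript encodes a hydrolase, share 912 exon bases on opposite strands, and Mest stood at only 0.313 to 2.00 CPM.

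**Figure D2:**
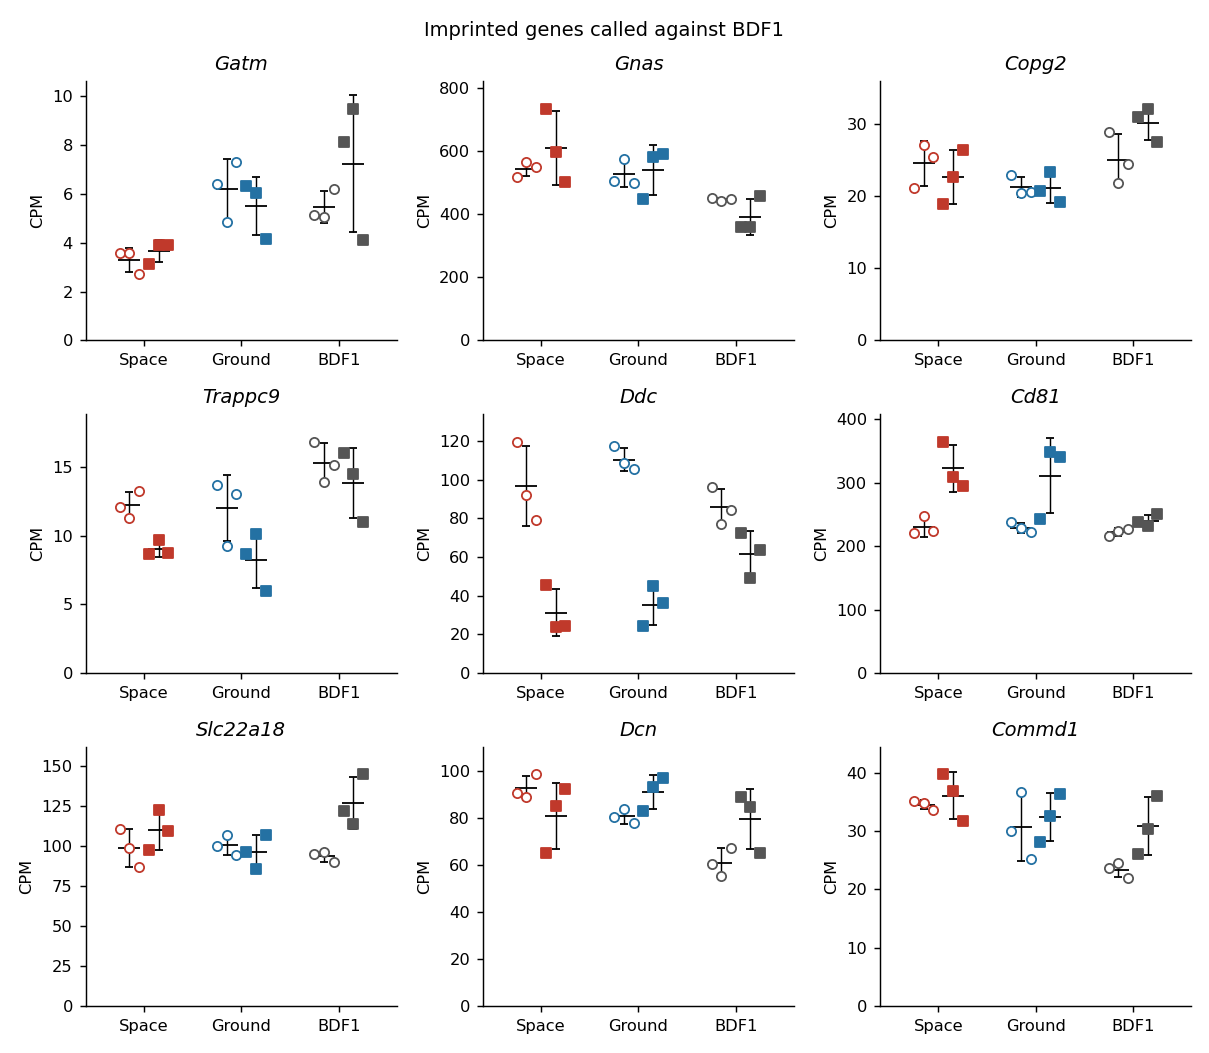
CPM of 9 imprinted genes called against BDF1 in at least 1 comparison; open circles are replicates 1 to 3 and filled squares replicates 4 to 6 of each group, and the bars give mean and SD of 3 libraries. All Gatm points of Space lie between 2.72 and 3.91 CPM, below every other library, and Ddc of the pups in replicates 4 to 6 lies between 24 and 45.3.

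Peg3 and Igf2 showed the widest range of the list. Both are paternally expressed: Peg3 encodes a large zinc finger protein (chr7:6703892-6730431) and Igf2 the fetal insulin-like growth factor 2 (chr7:142650766-142666816), and the genes lie far apart on chromosome 7. Peg3 was 4.42, 7.76 and 7.31 CPM in Space replicates 1 to 3 and 212, 10.0 and 10.8 in replicates 4 to 6. In Ground it was 5.48, 8.66 and 8.69 in replicates 1 to 3 and 13.3, 256 and 229.9 in replicates 4 to 6. The BDF1 values were 11.7, 21 and 13.8, then 10.8, 12.1 and 15.6. Space replicate 4 and Ground replicates 5 and 6 thus stood apart, the lowest of them 10.1-fold above the highest of the other 15 libraries.

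Igf2 was high in the same 3 libraries. It was 0.648, 0.751 and 0.374 CPM in Space replicates 1 to 3 and 5.81, 0.84 and 1.15 in replicates 4 to 6, which correspond to 74, 14 and 20 counts. In Ground it was 0.392, 0.368 and 0.211, then 0.944, 9.52 and 20.8 (16, 145 and 302 counts in replicates 4 to 6). In BDF1 it was 0.235, 0.438 and 0.47, then 0.693, 0.224 and 0.1. The lowest of the 3 libraries was 5.05-fold above the highest of the other 15. H19, downstream of Igf2, had 0, 0 and 2 counts there, and Usp29, which shares the promoter of Peg3, had 0, 1 and 0.

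Airn, the paternal antisense RNA that silences Igf2r, was highest in Space replicate 4 and Ground replicate 5, at 2.91 and 2.3 CPM (37 and 35 counts). Ground replicate 6 had 0.966 CPM from 14 counts, close to 0.945 from 18 counts in Ground replicate 2, the highest of the rest, and counts of Airn went down to 3. Among other paternally expressed genes, Snrpn stood at 13.4, 11 and 9.31 CPM and Plagl1 at 0.628, 0.722 and 1.03, where Space replicate 4 was the highest of 18 libraries for Snrpn, and Space replicate 4 and Ground replicate 5 were the lowest for Plagl1. The other values of these genes lay within the range of the remaining 15 libraries. Ndn was 0.471, 1.31 and 0.414 CPM, the middle value being the highest of its group. These 3 libraries were picked out by the measured values, and no test compares them with the others.

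The promoters of Peg3 and Igf2 are printed because the transcripts were high in the same livers. The Peg3 window (chr7:6730370-6730669, minus strand) holds 13 CG and shares 263 bases with the window of Usp29, which is transcribed in the opposite direction. Of 4 windows of Igf2, the one with the most CG (chr7:142658755-142659054, minus strand) holds 24.
Peg3: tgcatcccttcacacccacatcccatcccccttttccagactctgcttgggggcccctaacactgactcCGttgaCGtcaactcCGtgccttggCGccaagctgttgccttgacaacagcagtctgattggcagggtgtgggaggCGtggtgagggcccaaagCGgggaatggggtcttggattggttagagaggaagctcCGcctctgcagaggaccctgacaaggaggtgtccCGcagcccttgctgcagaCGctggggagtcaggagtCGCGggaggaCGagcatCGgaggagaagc
Igf2: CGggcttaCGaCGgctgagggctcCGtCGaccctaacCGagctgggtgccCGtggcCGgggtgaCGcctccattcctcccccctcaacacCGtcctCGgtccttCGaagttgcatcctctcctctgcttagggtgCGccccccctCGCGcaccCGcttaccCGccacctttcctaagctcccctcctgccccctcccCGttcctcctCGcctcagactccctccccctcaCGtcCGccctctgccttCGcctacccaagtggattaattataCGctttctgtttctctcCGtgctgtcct
Neither window holds TGCCGC on either strand. Of the Igf2 windows not printed, the one at chr7:142661222-142661521 holds it 1 time.

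Other values moved with these libraries, and their part in the result was not tested. The 5 genes of a fetal liver and proliferation list (Afp, Gpc3, Dlk1, Mki67 and Top2a) summed to 37.9 CPM in Space replicate 4 and to 17.3 and 12.3 in Ground replicates 5 and 6. They also summed to 22.3 in Ground replicate 4, where Peg3 and Igf2 were low, against 1.10 to 9.95 in the other 14 libraries. The larger share was Mki67, the proliferation marker, with 29.5, 3.06 and 5.81 CPM in Space and 16.6, 11.7 and 9.18 in Ground replicates 4 to 6. Afp, the fetal serum protein, stayed between 0.219 and 1.01 CPM over all libraries, and Dlk1 had at most 1 count. The hepatocyte markers summed to 283565, 303046 and 379556 CPM in Space replicate 4 and Ground replicates 5 and 6, against 219689 to 247761 in the other pups of replicates 4 to 6. This sum includes Alb, which took 17.6% to 24.1% of counts in those 6 pups. The 8 markers did not move together. Within replicates 4 to 6, 5 had estimates above BDF1 in Space and 4 in Ground. Alb (1.75 and 2.04) and Apoa1 (1.64 and 1.69) were called higher in Space and Ground, and Cyp2e1 (-0.61 and -0.67) lower. The TMM factors were 0.754, 0.762 and 0.705 in the 3 libraries and 0.901 to 0.960 in those pups, and the 10 most abundant genes took 31.6%, 33.1% and 37.9% of counts against 29.1% to 30.7%.

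**Figure D3:**
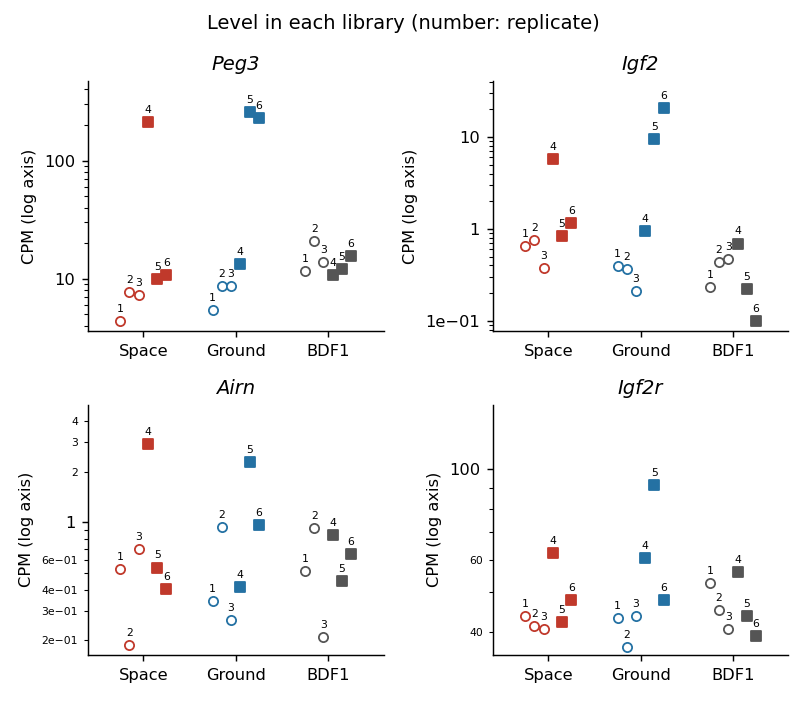
CPM of Peg3, Igf2, Airn and Igf2r in each library on log axes, with the replicate number at each point; open circles are replicates 1 to 3 and filled squares replicates 4 to 6. Peg3 lies between 212 and 256 CPM in Space replicate 4 and Ground replicates 5 and 6 and between 4.42 and 21 in the other 15 libraries.

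The tests of both genes depended on these libraries. Over all libraries Igf2 was just short of the threshold in Ground against BDF1 (log2 change 3.87, SE 1.09, adjusted p = 0.0537), and Peg3 was farther from it (log2 change 2.62, SE 1.11, adjusted p = 0.189). Igf2 was called there with DESeq2 (adjusted p = 0.00385), the set as covariate (adjusted p = 0.0405), total counts (adjusted p = 0.0426), and without Ground replicate 1, 2 or 3 or Space replicate 4. Within replicates 4 to 6 both were higher in Ground than in BDF1, Igf2 with log2 change 4.92, SE 0.946, adjusted p = 0.00299 and Peg3 with log2 change 3.70, SE 1.02, adjusted p = 0.0225. In Space the differences did not pass, with log2 change 2.87, SE 0.981, adjusted p = 0.0634 for Igf2 and log2 change 2.58, SE 0.983, adjusted p = 0.0916 for Peg3. Other settings called them in Space, Igf2 with DESeq2 (adjusted p = 0.0239), no filter (adjusted p = 0.0375), total counts (adjusted p = 0.0423) and without Ground replicate 4 or 6, and Peg3 without Ground replicate 4 or Space replicate 6. Without the 3 libraries, which leaves 1 Ground library assumed to vary like the rest, the Ground estimates within replicates 4 to 6 were 1.46 (SE 0.697, adjusted p = 0.216) for Igf2 and 0.04 (SE 0.343, adjusted p = 0.958) for Peg3. Over all libraries they were 0.39 (SE 0.499, adjusted p = 0.72) and -0.65 (SE 0.268, adjusted p = 0.198). The Peg3 call was also lost without Ground replicate 5 or 6 or any of BDF1 replicates 4 to 6 (adjusted p up to 0.0803), and with the replicate block (adjusted p = 0.0532).

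In replicates 1 to 3 Peg3 pointed the other way. All 6 pup libraries lay below all 3 BDF1 libraries, with log2 change -1.25, SE 1.01, adjusted p = 0.532 in Space and log2 change -1.03, SE 0.99, adjusted p = 0.661 in Ground. Neither was called. In a fit of only the libraries of replicates 1 to 3, Peg3 was called in Space (log2 change -1.25, SE 0.271, adjusted p = 0.0186) and not in Ground. Without the 3 libraries it was called in both, at -1.25 (SE 0.253, adjusted p = 0.00716) and -1.02 (SE 0.248, adjusted p = 0.027), but these libraries were picked by their Peg3 values, so that the p-values are not independent of that choice. The difference between the replicate sets was 3.84 in Space (adjusted p = 0.141) and 4.72 in Ground (adjusted p = 0.0811) and was not called by edgeR with all libraries. In Ground it was called with DESeq2 (adjusted p = 0.0211), voom (adjusted p = 0.0149), no filter (adjusted p = 0.0272), total counts (adjusted p = 0.0435) and without Ground replicate 4 or Space replicate 4, as was that of Igf2 in the same settings except voom.

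Igf2r, the other gene whose control region the study examined, gave no call against BDF1 with all libraries in the fit. It was called within replicates 4 to 6 in Ground when Ground replicate 6 was left out. Igf2r (chr17:12682406-12769664) stood at 40.7 to 62.3 (median 43.1) CPM in Space, 36.8 to 91.5 (median 45.9) in Ground and 39 to 56 (median 44.4) in BDF1. The groups overlapped, with Ground replicate 5 the highest of the 18. The change against BDF1 was 0.01 in Space (SE 0.184, adjusted p = 0.992) and 0.22 in Ground (SE 0.183, adjusted p = 0.526). Without the 3 libraries these were -0.09 and -0.0054. Slc22a3, an organic cation transporter of the same domain, ranged from 1.48 to 5.12 CPM and was not called in any comparison of groups with TMM scaling. With total counts its difference between the replicate sets in Ground against BDF1 was called. It shares 420 exon bases with Plg, the plasminogen gene, on the opposite strand.

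Within replicates 1 to 3, 2 of the 34 genes were called in Space against BDF1, or 5.88%, beside 4.9% of all genes, and both were higher in Space, beside 2.93% of all genes called higher. Ground against BDF1 gave 0 calls by edgeR beside 2.02% of all genes, with 5 of the 34 at an unadjusted p under 0.05. The counts without overlap were 14 of 34 in Space and 10 of 34 in Ground, beside 35.8% and 24.2% of all genes, so that neither stood out from the background.

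Dcn encodes decorin, a proteoglycan of the extracellular matrix that is imprinted in placenta. Dcn (chr10:97479609-97518143) was 90.7, 88.8 and 98.5 CPM in Space replicates 1 to 3, 80.5, 83.7 and 77.7 in Ground and 60.3, 55.4 and 67.4 in BDF1. Both pup groups lay above BDF1 without overlap. The change was called in Space (log2 change 0.60, SE 0.135, adjusted p = 0.0181) but not in Ground (log2 change 0.40, SE 0.135, adjusted p = 0.143), though Ground was called with voom (adjusted p = 0.0341) and in a fit of only these replicates (adjusted p = 0.0402). In replicates 4 to 6 the Space estimate was 0.03 (adjusted p = 0.919). With voom Dcn was also called over all libraries in Space, as was its difference between the sets. The Space call within replicates 1 to 3 was lost with the replicate block (adjusted p = 0.053), with total-count scaling (adjusted p = 0.149) and without Space replicate 1 or 3 or BDF1 replicate 1 or 2 (adjusted p up to 0.0916). Markers of stellate cells, which make decorin, moved with it. The 8 stellate markers, all detected, summed to 125 to 144 CPM in Space, 104 to 138 in Ground and 82.3 to 101 in BDF1 replicates 1 to 3, and their part in the result was not tested.

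Commd1, a regulator of copper export and of NF-kB that is imprinted in brain, was the other call. Commd1 (chr11:22896136-22982382) was 35.2, 34.8 and 33.6 CPM in Space replicates 1 to 3, 30.1, 36.8 and 25.3 in Ground and 23.7, 24.5 and 22 in BDF1. Space and BDF1 were far apart relative to their spread (log2 change 0.56, SE 0.143, adjusted p = 0.0334). Over all libraries the estimate was 0.38 (adjusted p = 0.0748), and it was called when the replicate number was a block (0.40, adjusted p = 0.0427), with the set as covariate, with DESeq2, with voom and without BDF1 replicate 6. Within replicates 1 to 3 the block gave adjusted p = 0.057 and total-count scaling adjusted p = 0.0711, and the call was lost without any 1 of the 6 libraries compared (adjusted p up to 0.119). The gene shares 412 exon bases with the imprinted Zrsr1 on the opposite strand.

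Grb10, an adaptor that dampens insulin and IGF1 receptor signalling, was 4.71, 3.88 and 3.04 CPM in Space replicates 1 to 3, 4.5, 3.1 and 3.11 in Ground and 1.88, 2.47 and 2.09 in BDF1. Both pup groups lay above BDF1, without passing the adjustment in Space (log2 change 0.85, SE 0.249, adjusted p = 0.062) or in Ground (log2 change 0.74, SE 0.248, adjusted p = 0.143). Space was called with DESeq2 (adjusted p = 0.0261), with voom (adjusted p = 0.0084), without Ground replicate 5 and without the 3 libraries (adjusted p = 0.0299), and Ground was called with voom (log2 change 0.84, adjusted p = 0.0204). In replicates 4 to 6 its values overlapped and the estimates were -0.42 and -0.38.

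Within replicates 4 to 6, 5 of the 34 genes were called in Space against BDF1, or 14.7%, beside 12.4% of all genes, and 7 in Ground, or 20.6%, beside 15.4%. Imprinted genes were thus called at about the rate of other genes. In Space Gnas and Cd81 were higher and Ddc, Gatm and Trappc9 lower, beside 6.56% and 5.81% of all genes. In Ground Igf2, Peg3 and Gnas were higher and Trappc9, Copg2, Ddc and Slc22a18 lower, beside 7.89% and 7.53%. The genes without overlap numbered 11 of 34 in Space and 9 of 34 in Ground, beside 32.1% and 30.3% of all genes. In a fit of only the libraries of replicates 4 to 6, none of the 5 Space calls and only Igf2 of the 7 Ground calls remained. Without the 3 libraries with high Peg3 and Igf2, Gatm (adjusted p = 0.0696) and Trappc9 (adjusted p = 0.0597) were no longer called in Space. Their log2 changes moved little, to -0.89 from -0.98 for Gatm and to -0.58 from -0.62 for Trappc9. In Ground 1 library was then left, and only log2 changes are given. Copg2 was at -0.55 (from -0.52), Trappc9 at -0.68 (from -0.74), Slc22a18 at -0.40 (from -0.40) and Ddc at -1.34 (from -0.81). Gnas fell to 0.19 from 0.46, Igf2 to 1.46 from 4.92 and Peg3 to 0.04 from 3.70.

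Ddc, next to Grb10 on chromosome 11 (chr11:11814101-11898144), encodes aromatic L-amino acid decarboxylase and is imprinted in heart. In replicates 4 to 6 it was 45.3, 24 and 24.4 CPM in Space, 24.5, 44.8 and 36.3 in Ground and 72.3, 49.4 and 63.6 in BDF1. Every pup library lay below every control. The decrease passed the test in Space (log2 change -0.99, SE 0.245, adjusted p = 0.0173) and in Ground (log2 change -0.81, SE 0.244, adjusted p = 0.0332). With the replicate block it was adjusted p = 0.0381 and 0.0742. In replicates 1 to 3 Ddc was 119.7, 91.9 and 79.2 in Space, 117, 108 and 105 in Ground and 96, 77.1 and 84.5 in BDF1, and no difference was called. The Space call was lost without Space replicate 5 or 6 or BDF1 replicate 4 (adjusted p up to 0.0709), and the Ground call without Ground replicate 4 or 6 or BDF1 replicate 4 or 6 (up to 0.12).

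Trappc9, a subunit of the TRAPP vesicle tethering complex with maternal bias in brain (chr15:72589620-73061204), was 8.64, 9.66 and 8.74 CPM in Space, 8.67, 10.1 and 6.00 in Ground and 16, 14.5 and 11 in BDF1. Both pup groups lay below the controls. The decrease was called in Space (log2 change -0.62, SE 0.186, adjusted p = 0.0412) and in Ground (log2 change -0.74, SE 0.187, adjusted p = 0.0142). In replicates 1 to 3 the estimates had the same sign, -0.33 and -0.35, without a call. With the replicate block Trappc9 was also called over all libraries, at -0.46 in Space (adjusted p = 0.0277) and -0.56 in Ground (adjusted p = 0.0145). Without the block these were -0.46 (adjusted p = 0.139) and -0.52 (adjusted p = 0.0909), while the set as covariate called both and DESeq2 called Ground. The Space call within replicates 4 to 6 was lost in 10 of 18 fits without 1 library (adjusted p up to 0.159), and the Ground call without Ground replicate 6 or BDF1 replicate 4 or 5 (up to 0.0668).

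Cd81 and Slc22a18, both of the Kcnq1 domain on chromosome 7, were called in 1 pup group each by edgeR with all libraries, Cd81 higher in Space and Slc22a18 lower in Ground, and other settings called Cd81 in Ground and Slc22a18 in Space. Cd81 (chr7:143052739-143067934) was 365, 309 and 294 CPM in Space, 243, 349 and 341 in Ground and 238, 232 and 251 in BDF1. Space lay above BDF1 without overlap (log2 change 0.43, SE 0.127, adjusted p = 0.0383), and Ground overlapped it (log2 change 0.37, SE 0.126, adjusted p = 0.0553). Cd81 was called in Ground with DESeq2 (adjusted p = 0.023), voom (adjusted p = 0.0148) and without Ground replicate 4 or Space replicate 4. The Space call was lost with the replicate block (adjusted p = 0.0894), without a filter, with total-count scaling (0.02, or 0.41 above the median of all genes) and without any of 6 libraries, Space replicates 4 and 5 and BDF1 replicates 2, 4, 5 and 6 (adjusted p up to 0.149). All 6 markers of Kupffer cells, the macrophages of liver, were detected and had estimates above BDF1 in both pup groups there. In Space their median log2 change was 0.68, and Clec4f was called (0.95, adjusted p = 0.0396). In Ground the median was 0.78 and 0 were called. They summed to 121 to 166 CPM in Space, 108 to 166 in Ground and 59.6 to 129 in BDF1. Ground replicate 4, with Cd81 at 243 CPM, had a sum of 148, and Ground replicate 6, with Cd81 at 341, had 108. In Ground replicates 1 to 3, where Cd81 was not called, the marker median was 0.62. Their part in the result was not tested. Slc22a18 (chr7:143473736-143499334), maternally expressed, was 97.4, 122 and 109 CPM in Space, 96.2, 85.4 and 107 in Ground and 122, 113 and 145 in BDF1. Ground lay below BDF1 without overlap (log2 change -0.40, SE 0.123, adjusted p = 0.0392). With total counts Slc22a18 was also called in Space. The Ground call was lost with voom, without a filter, with the block (adjusted p = 0.0551) and in 8 of 18 fits without 1 library (up to 0.163).

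Gatm, Gnas and Copg2 kept their directions in replicates 4 to 6. Gatm was 3.14, 3.9 and 3.91 CPM in Space and 8.12, 9.49 and 4.11 in BDF1 (log2 change -0.98, SE 0.265, adjusted p = 0.0257), and the call was lost without Space replicate 4 or 5 or BDF1 replicate 4 or 5 (adjusted p up to 0.13). Gnas was 734, 599 and 501 in Space, 448, 580.4 and 591 in Ground and 359, 359.7 and 457 in BDF1. It was called in Space (log2 change 0.64, SE 0.148, adjusted p = 0.0119) and in Ground (log2 change 0.46, SE 0.148, adjusted p = 0.0443). The Space call was lost with total-count scaling (0.23, or 0.62 above the median of all genes, adjusted p = 0.125) and without Space replicate 4 or BDF1 replicate 4 or 5 (adjusted p up to 0.0606). The Ground call was lost without a filter, with the block (adjusted p = 0.102) and in 12 of 18 fits without 1 library (up to 0.141). With total-count scaling the Ground estimate turned to -0.03, which was 0.43 above the median of all genes, and was not called. Copg2 was 20.7, 23.4 and 19.2 in Ground and 30.9, 32 and 27.4 in BDF1 (log2 change -0.52, SE 0.137, adjusted p = 0.0186), a call lost without Ground replicate 6 or BDF1 replicate 4 or 5 (adjusted p up to 0.0814). In Space Copg2 was called with DESeq2, voom, total counts and without Space replicate 6.

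**Figure D4:**
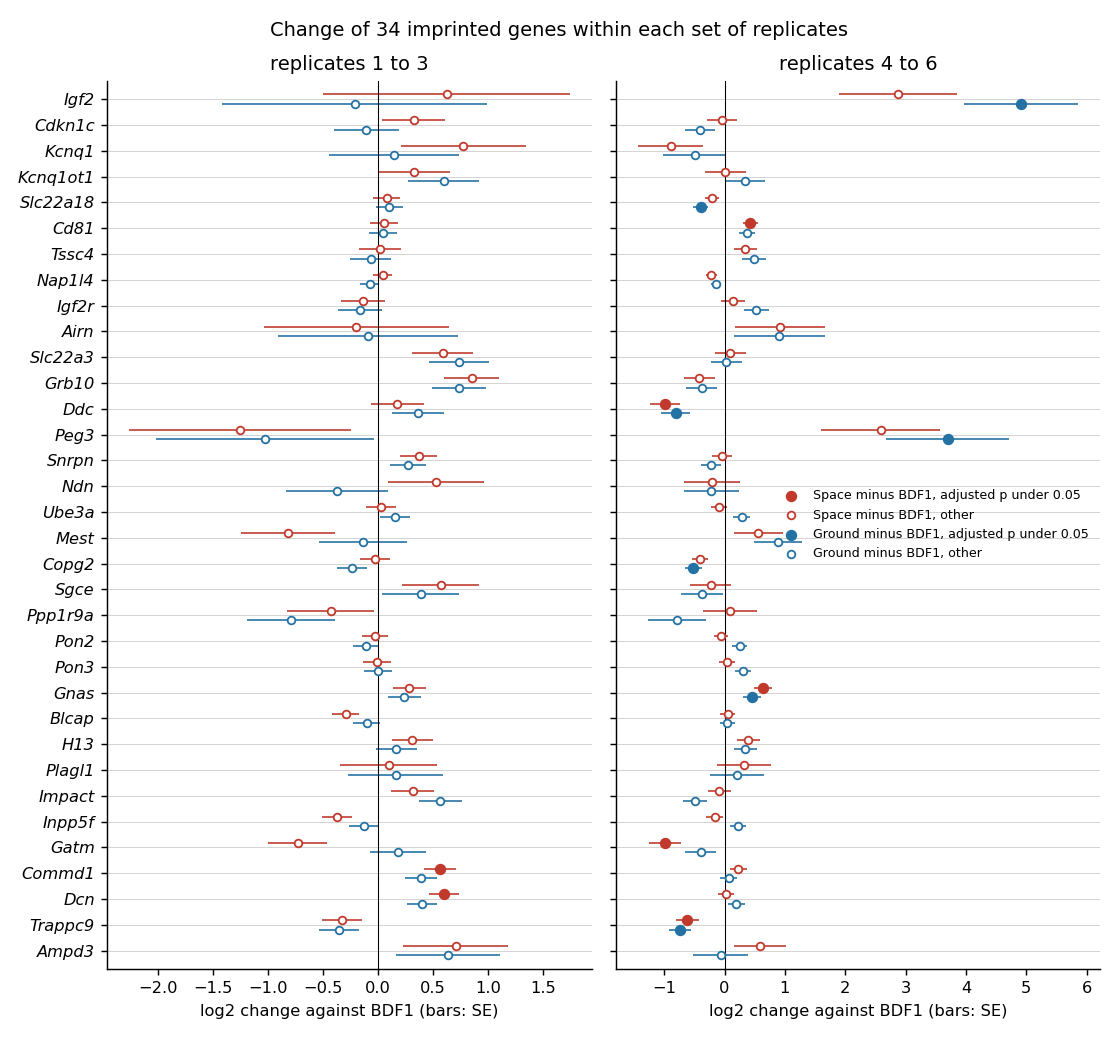
Log2 change against BDF1 of the 34 genes in Space and Ground, with SE bars, within replicates 1 to 3 (left) and 4 to 6 (right, wider axis); filled points have an adjusted p under 0.05 over all genes. The left panel holds 2 filled points, Dcn and Commd1 in Space, and the right panel 5 in Space and 7 in Ground.

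Whether the difference between groups itself differed between the replicate sets was tested for each gene. For Space against Ground the difference gave 0 calls beside 0% of all genes, with 2 at an unadjusted p under 0.05. Of the 34, 0 were called for Space against BDF1 beside 3.45% of all genes, with 7 at an unadjusted p under 0.05, and 1 for Ground against BDF1 beside 2.91%. The gene called was Impact, a paternally expressed inhibitor of the GCN2 kinase. It was 15.5, 11.7 and 17.9 CPM in Ground and 9.69, 10.5 and 10.2 in BDF1 replicates 1 to 3, and 11.9, 9.06 and 7.24 in Ground and 11.3, 13.6 and 14.9 in BDF1 replicates 4 to 6. Ground lay above BDF1 in the first set and mostly below it in the second. The difference of the changes was -1.06 (SE 0.275, adjusted p = 0.0468), and the changes themselves were 0.57 (adjusted p = 0.145) and -0.49 (adjusted p = 0.0981). The first of these was called with voom and the second without Ground replicate 4. It was called in 5 of the 18 fits that left out 1 library, not with the replicate block (adjusted p = 0.128), and not without the 3 libraries named above, where it was -0.73 (SE 0.313, adjusted p = 0.246). Ddc came next, with -1.17 in Ground (adjusted p = 0.0762) and -1.16 in Space (adjusted p = 0.0721). Without those libraries both were called, at -1.70 (SE 0.278, adjusted p = 0.00925) and -1.52 (SE 0.232, adjusted p = 0.00169), as they were with DESeq2, voom, no filter, total counts and without Space replicate 4. Grb10 had -1.27 in Space (adjusted p = 0.0608), and -1.41 (SE 0.355, adjusted p = 0.0293) without the 3 libraries, and it was called with DESeq2, voom, total counts and without Ground replicate 5.

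The imprinted genes differed between replicates 4 to 6 and 1 to 3 at about the rate of all genes. Averaged over the groups, 14 of 34 genes were called, or 41.2%, beside 38.8% of all genes, with 6 higher and 8 lower in replicates 4 to 6, beside 19.6% and 19.1% of all genes. Cdkn1c, with the smallest adjusted p, was higher, going from 0.685 to 1.71 CPM in replicates 1 to 3 up to 1.84 to 4.11 in replicates 4 to 6, without overlap (log2 change 1.57, SE 0.157, adjusted p = 9.02e-07). Slc22a3 (0.80), Cd81 (0.35), Igf2r (0.32), Peg3 (2.58) and Igf2 (2.30) were also higher. Without the 3 libraries named above, Peg3, Igf2 and Igf2r were no longer called (adjusted p = 0.0684, 0.13 and 0.0553). Neither Igf2 nor Igf2r was called with voom. Igf2 was also not called without BDF1 replicate 4, nor Igf2r without any 1 of BDF1 replicates 2 to 4, Ground replicates 2 and 5 and Space replicates 2 to 4. Cdkn1c shares 30.7% of its exon bases with Gm44732 on the opposite strand. With total-count scaling Cd81 and Igf2r were not called, at 0.08 and 0.07, which is 0.33 and 0.31 above the median of all genes.

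The genes lower in replicates 4 to 6 were led by Ppp1r9a, the actin-binding scaffold neurabin (log2 change -1.56, SE 0.253, adjusted p = 0.00014), and Ddc (log2 change -1.25, SE 0.141, adjusted p = 3.44e-06). Blcap, a gene named for its loss in bladder cancer, was also lower (log2 change -0.60, SE 0.0714, adjusted p = 5.77e-06). Grb10 (-0.48), Trappc9 (-0.37), Tssc4 (-0.36), Ube3a (-0.24) and the paraoxonase Pon2 (-0.22) were lower as well. Ube3a was no longer called without the 3 libraries or without Space replicate 1. Other settings called further genes between the sets. Slc22a18 was called with DESeq2, voom, a filter of at least 1 CPM in 6 libraries and without the 3 libraries. H13, Commd1 and Mest were called with voom, and H13 also without the 3 libraries. Total counts called Gnas, H13, Impact, Inpp5f, Kcnq1ot1 and Nap1l4. Some fits without 1 library added Slc22a18, H13, Nap1l4, Commd1 or Mest. By class, 2 of 10 paternally expressed, 3 of 7 maternally expressed and 9 of 17 placental or single-tissue genes were called. Replicate number and Xist level go together in all 3 groups, so the sex of the animals and anything else that separates the sets cannot be told apart.

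**Figure D5:**
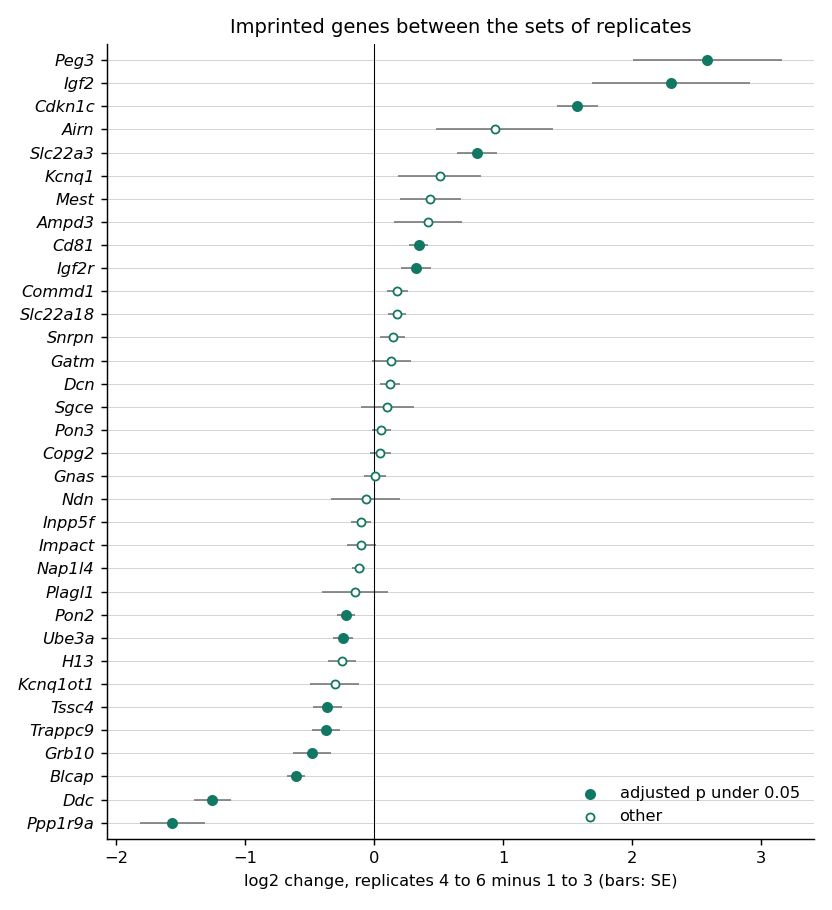
Log2 change of the 34 genes, replicates 4 to 6 minus replicates 1 to 3 averaged over the 3 groups, with SE bars; filled points have an adjusted p under 0.05 over all genes. There are 14 filled points, from Ppp1r9a at -1.56 to Peg3 at 2.58.

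The remaining genes were not called in any comparison of groups by edgeR with TMM scaling and all libraries. In the Kcnq1 domain, the potassium channel gene Kcnq1 ranged from 0.329 to 2.1 CPM over the 18 libraries, its antisense RNA Kcnq1ot1 from 1.26 to 3.99, Tssc4 from 8.14 to 16.1 and the histone chaperone Nap1l4 from 30.8 to 39.5. Kcnq1 and Kcnq1ot1 share 121 exon bases on opposite strands. In the Snrpn domain, Snrpn, a component of spliceosomal particles, ranged from 7.16 to 13.4 CPM and the necdin gene Ndn from 0.392 to 1.71. Snrpn shares 216 exon bases with Snurf and 589 with Gm38393 on the same strand, so that its count may hold only part of its reads. In the Peg10 domain, Sgce, which encodes a sarcoglycan, ranged from 0.826 to 2.3 CPM and the paraoxonases Pon2 and Pon3 from 36.8 to 57.3 and 50.8 to 80.6, while Peg10 and Asb4 were under the filter. H13, a signal peptide peptidase, ranged from 94.1 to 189 CPM, Blcap from 20.9 to 46.9, Plagl1 from 0.628 to 2.05 and Ampd3, an AMP deaminase, from 0.207 to 1.14. Other settings called some of them, and some genes described above, against BDF1. Tssc4 was called in Ground within replicates 4 to 6 with voom (log2 change 0.51, adjusted p = 0.0462) and without Ground replicate 4, which also called its difference between the sets. Snrpn, Inpp5f, Gatm and Gnas were called in Space within replicates 1 to 3 with voom, Gatm also in the fit of only those libraries. With total-count scaling Nap1l4, Snrpn, Sgce, Pon2, Blcap, Cdkn1c, Ppp1r9a, Inpp5f, Commd1, Grb10 and Impact, and in Ground Gatm, were called within replicates 4 to 6 in at least 1 pup group.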

How the data were processed

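Liver RNA of 6 Space, 6 Ground and 6 BDF1 mice was sequenced, 1 library per animal. The deposited table holds whole-number read counts per gene, which the authors made, by the submitters' processing notes, with bcl2fastq 2.20, cutadapt 4.6, HISAT2 2.2.1 and HTSeq 2.0.2 on mm10. The strand and overlap settings are not given in the sources used here. The labels name a stranded mRNA kit, and the methods of the study describe another kit, which is also for stranded mRNA.

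Counts were tested with edgeR 4.0.16 in R 4.3.3 (TMM scaling, filterByExpr, quasi-likelihood F-test) over all 18 libraries, either by group or by group and replicate set, and p-values were adjusted by Benjamini-Hochberg over 12847 genes. A gene was called at an adjusted p under 0.05. All p-values are two-sided, and SE is the log2 change divided by the square root of F. The fits were tested on simulated data. No libraries of a group agreed within sampling noise. Alternatives used DESeq2 1.42.0 and limma 3.58.1 (voom), other scalings, filters and sample sets, and each library left out in turn. Same-numbered samples of different groups deviated together in all 18 pairs (r 0.231 to 0.654), so the number was also fitted as a block. The median r was 0.49 for these pairs and 0.53 for pairs of other numbers in the same replicate set. For deviations from the mean of each group and replicate set, same-numbered pairs had a median r of -0.05. The number thus showed no pairing beyond the replicate set. Lengths and positions come from GENCODE M21, in which 32235 of 32285 identifiers were found.

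Genes were described in full if called between groups, if among the 3 smallest p-values of a comparison over all libraries, or if they were H19 or Igf2r, and the others by range. The members and lists were chosen with earlier results of these data known.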

Additional observations from a re-analysis of the deposited data

Results flagged for a closer look

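Within each group of 6 libraries, a library was picked out when its gap to the nearest other exceeded 0.625 of the range of the group, Dixon's 95% value. Of 102 groups of values, 8 met this, in 7 genes. The limit would mark about 5% of groups of independent, normally distributed values. These groups mix both replicate sets and share their libraries, so that rate cannot serve as a benchmark here. Space replicate 4 stood apart for Peg3 at 212 CPM, Igf2 at 5.81, Airn at 2.91 and Igf2r at 62.3. Ground replicate 5 stood apart for Airn at 2.30 CPM and for Ndn at 1.31. BDF1 replicate 1 was high for Ppp1r9a at 13.5 CPM, and Ground replicate 4 was low for H13 at 102 CPM. For Peg3 and Igf2 in Ground, 2 of 6 libraries were high, so that neither met the limit.

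The change of Impact in Ground against BDF1 differed between replicates 4 to 6 and 1 to 3 by -1.06 on the log2 scale (edgeR adjusted p = 0.0468).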

How the results depend on the processing

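The number of the 34 genes called was recomputed under each alternative. Space against BDF1 over all libraries (2 called) gave 1 with total-count scaling, 1 without a filter, and 4 each with voom, the replicate block and the replicate set as covariate. Ground against BDF1 (1 called) gave 0 with DESeq2 size factors, no filter, voom, only the 2 groups, the 10 most abundant genes removed, or without Space replicate 4 and Ground replicates 5 and 6 (the last 2 chosen after seeing the data), 2 with total counts, and 4 each with DESeq2, the set as covariate and an adjusted p under 0.1. Within replicates 1 to 3, Space against Ground (0) gave 1 with voom. Space against BDF1 (2) gave 0 with total counts and with the block, 7 with voom, and 4 with only that set or without the 3 libraries. Ground against BDF1 (0) gave 3 with voom and 1 with only that set or without the 3 libraries. Within replicates 4 to 6, Space against BDF1 (5) gave 11 with total counts, 0 with only that set, 3 without the 3 libraries and 8 at 0.1. Ground against BDF1 (7) gave 16, 1, 1 and 11 in that order, and 3 with the block. The difference between sets gave, for Space (0), 2 with total counts, DESeq2, the 3 libraries left out and 0.1, 1 without a filter and 3 with voom. For Ground (1) it gave 9 with total counts, 4 with no filter, DESeq2 and 0.1, 3 with voom and 0 with the block. Replicates 4 to 6 minus 1 to 3 (14) gave 18 with total counts and 12 without the 3 libraries. The replicate block changed 12 calls between groups, each given above with its gene, and no other.

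With 1 library left out, the counts ranged from 0 to 3 and 0 to 2 for Space and Ground against BDF1 over all libraries, 0 to 3 for Space within replicates 1 to 3, and 0 to 7 and 1 to 8 within replicates 4 to 6. Space against Ground gave 0 to 1 within replicates 4 to 6, the differences 0 to 1 and 0 to 4, and the sets 13 to 17. The Igf2r change against BDF1 was near 0 in Space (0.01) and turned to -0.27 with total counts, -0.0056 without a filter, -0.076 with voom, -0.0084 with the set as covariate, -0.00013 without the 10 genes and -0.09 without the 3 libraries, with -0.094 to 0.073 when 1 library was left out. In Ground (0.22) it was -0.088 with total counts and -0.0054 without the 3 libraries, and 0.0078 to 0.31 when 1 library was left out, lowest without Ground replicate 5. Gnas in Ground within replicates 4 to 6 was -0.031 with total counts. The causes were not tested. Counting error limits the genes with few counts most, the 10 under the filter, Airn with 3 to 37 counts, and Igf2 outside its 3 high libraries.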

Other observations

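Of 30 further imprinted genes outside the list, 15 passed the filter. Over all libraries 2 of them were called in Space and 2 in Ground against BDF1, beside 3.8% and 3.81% of all genes. Tfpi2, a protease inhibitor imprinted in placenta, was higher than BDF1 in Space (log2 change 0.60, SE 0.123, adjusted p = 0.0127) and in Ground (0.49, adjusted p = 0.0380). Its level was 49.0 to 81.4 CPM in Space, 52.5 to 74.9 in Ground and 40.4 to 49.6 in BDF1. Ground and BDF1 thus did not overlap, beside 2.83% of all genes without overlap. Snx14 was lower in Space (-0.38, adjusted p = 0.0394) and Tbc1d12 higher in Ground (0.43, adjusted p = 0.0441). Within replicates 1 to 3 only Tfpi2 was called (0.86 in Space, 0.63 in Ground), beside 4.9% and 2.02% of all genes. Within replicates 4 to 6, 4 were called in Space and 2 in Ground, beside 12.4% and 15.4%. In Space Zrsr1 (0.54) was higher, and Gab1 (-0.62), Arid1b (-0.60) and Snx14 (-0.51) were lower. In Ground Zrsr1 (0.61) and Tbc1d12 (0.48) were higher.

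Among 22 genes that set or keep imprints, 16 passed the filter. Over all libraries 1 was called in Space and 0 in Ground against BDF1, beside 3.8% and 3.81% of all genes. Within replicates 1 to 3 the calls were 2 and 1, beside 4.9% and 2.02%. Within replicates 4 to 6 they were 2 and 2, beside 12.4% and 15.4%, which was near the background. Trim28, the corepressor recruited by KRAB zinc finger proteins, was lower in Space than in BDF1 (-0.33, SE 0.0637, adjusted p = 0.00899), at 44.5 to 48.8 CPM against 54.9 to 62.6. It was also called lower in Space within replicates 1 to 3 (-0.33, edgeR adjusted p = 0.0482) and within replicates 4 to 6 (-0.33, edgeR adjusted p = 0.0274). Zfp445, a zinc finger protein that protects imprints, was higher in both pup groups within replicates 1 to 3 (0.65 in Space, adjusted p = 0.00923, and 0.59 in Ground, adjusted p = 0.0253). Its change against BDF1 differed between the sets, by -0.89 in Space (adjusted p = 0.0120) and -0.74 in Ground (adjusted p = 0.0359), replicates 4 to 6 minus 1 to 3. Such a difference was called for 3.45% of all genes in Space and 2.91% in Ground. The DNA methyltransferase gene Dnmt3a was higher within replicates 4 to 6 (0.64, adjusted p = 0.0311, and 0.81, adjusted p = 0.00725), and its change in Space differed between the sets by 1.04 (adjusted p = 0.0392). Eed was higher in Ground within replicates 4 to 6 (0.42, edgeR adjusted p = 0.00759).

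Slc22a2, a placentally imprinted transporter gene beside Slc22a3, was singled out after its values were seen. It stood at 3.61 CPM in Space replicate 4, 6.82 in Ground replicate 5 and 0.69 in Ground replicate 6, the libraries with high Peg3 and Igf2, and at 0.115 or less in the other 15.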
